A study of Mus musculus with 21 samples.

Results

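Apolipoproteins are the proteins that give lipoproteins their structure and direct their exchange and uptake, and a small number of further proteins load lipid onto them before secretion. The group described here consists of 10 of the 46517 Ensembl genes in the count table, chosen by name as apolipoprotein and lipoprotein assembly genes: Apoa1, Apoa2, Apoa5, Apob, Apoc1, Apoc3, Apoe, Apoh, Apom and Mttp. The data come from left ventricles of 4 control (Notch3+/+) and 3 Notch3-/- mice, which were c57bl/6j animals of 10 to 14 months whose sex is not given. The Notch3-/- mice carry lacZ inserted in the Notch3 locus. Polyadenylated RNA of the tissue was reverse transcribed, amplified by PCR and sequenced as 3 technical libraries per mouse, 21 in all. The libraries held 464390 to 2427783 counts, and each mouse, with its 3 libraries added up, was 1 replicate.

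Lipoproteins that carry triglyceride are built in liver and intestine, where microsomal triglyceride transfer protein, the product of Mttp, adds lipid to apolipoprotein B as it is made. Apolipoproteins A-I and A-II form the core of high-density lipoprotein, while smaller apolipoproteins such as C-III and A-V tune the hydrolysis of triglyceride at the capillary wall. Cardiomyocytes take up the fatty acids released there, and apolipoprotein E, a ligand for receptors that clear lipoproteins, is made by many cell types, macrophages among them. From this background, 7 members (Apoa1, Apoa2, Apoa5, Apoc1, Apoc3, Apoh and Apom) were classed as liver-restricted and 3 (Apob, Mttp and Apoe) as genes that the heart can express.

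Notch3, the targeted gene, had 174, 200, 245 and 185 counts in control hearts 1 to 4, against 22, 36 and 25 counts in Notch3-/- mice 1 to 3. All Notch3-/- mice thus lay below all control mice, as their labels state, with a log2 fold change of -3.16 (SE 0.23, edgeR, Benjamini-Hochberg FDR 0.00173). The Notch3-/- hearts did not stand equally. For all 10 members, the values of Notch3-/- mice 1 and 2 lay far above those of Notch3-/- mouse 3, whose values were within or close to the control range, and whose library 3 held 43 of its 57 Apoa1 counts. For the members tested, fold changes are therefore given with all mice and without Notch3-/- mouse 3, and also without Notch3-/- mouse 2, which had the highest CPM for all 10. These mice were picked with their values known, so that the fits without them are descriptions. Among control mice, control mouse 2 had the highest value for 7 of the 10 members.

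**Figure D1:**
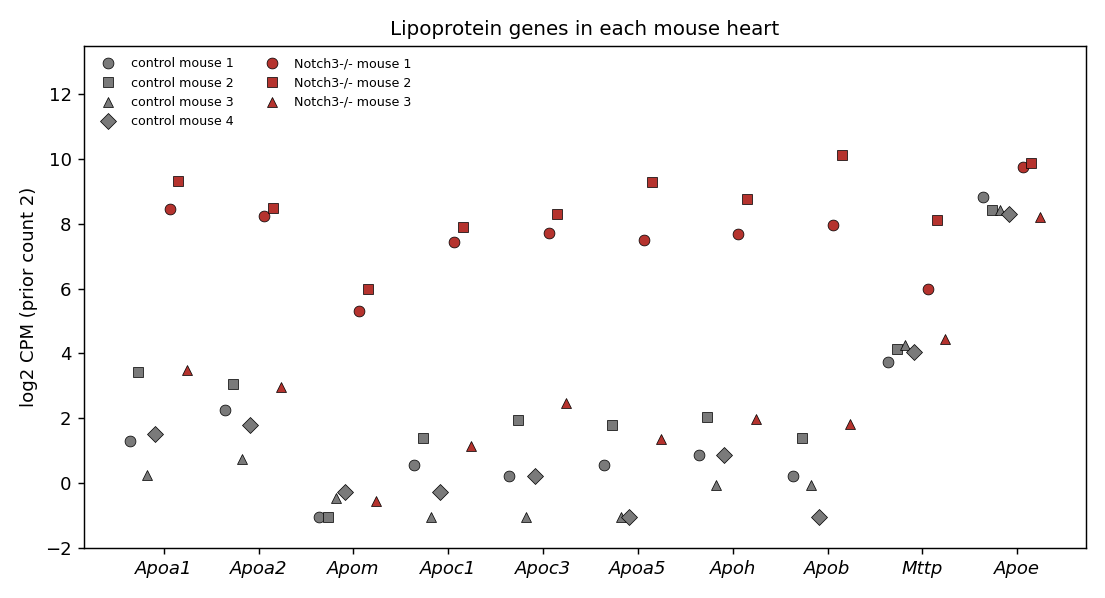
Log2 CPM (TMM-scaled counts per 1e6, prior count 2) of the 10 lipoprotein genes, 1 point per mouse, with control mice in grey and Notch3-/- mice in red. Notch3-/- mice 1 and 2 sit above every control mouse for all 10 genes, while Notch3-/- mouse 3 lies among or near the control mice and below all of them for Apoe.

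Levels were expressed as TMM-scaled counts per 1e6 (CPM), and levels of different genes were compared as CPM per kb of exon. On that scale Apoe was the most abundant member in control hearts, at 170.5 ± 29.3 CPM per kb (SD, n = 4). Apoa2 followed at 7.57 ± 5.21, Apoa1 at 3.10 ± 3.55 and Mttp at 2.61 ± 0.396 CPM per kb (SD, n = 4 each). Apart from the step below Apoe, no neighbours in this order differed by more than their spread. Apob was the lowest of the 10 in control hearts, at 0.0581 ± 0.0652 CPM per kb (SD, n = 4), so that its class as a heart-expressed gene was not borne out by these counts. In the control hearts measured here, Apoe and Mttp were the members with counts well above the floor of 3 counts in every mouse.

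The comparison asked whether genes of lipoprotein assembly differ between control and Notch3-/- hearts, and whether liver-restricted members differ from those the heart expresses. Apoa1 (ENSMUSG00000032083, chr9:46228580-46230466, plus strand, GENCODE vM21 on GRCm38) encodes the main protein of high-density lipoprotein. It had 6, 49, 3 and 7 counts in control hearts 1 to 4, against 1298, 3079 and 57 counts in Notch3-/- mice 1 to 3. Notch3-/- mice 1 and 2 were high, and Notch3-/- mouse 3 (10.8 CPM) was next to control mouse 2 (10.3 CPM), so that the groups did not overlap but nearly touched. The means were 3.84 ± 4.38 CPM (SD, n = 4) and 338 ± 319 CPM (SD, n = 3). The log2 fold change was 6.36 (SE 1.18, edgeR, Benjamini-Hochberg FDR 0.118), 6.90 without Notch3-/- mouse 3 (edgeR, Benjamini-Hochberg FDR 5.13e-05) and 5.44 without Notch3-/- mouse 2 (edgeR, Benjamini-Hochberg FDR 0.224). In such bulk samples, more cells of a type and more RNA per cell cannot be told apart, nor can fewer cells of a type and less RNA per cell.

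Apoa2, which encodes the second protein of high-density lipoprotein, had 13, 37, 5 and 9 counts in the control hearts, against 1121, 1719 and 39 counts in Notch3-/- mice. The groups overlapped, because Notch3-/- mouse 3 (7.37 CPM) lay below control mouse 2 (7.80 CPM). Its log2 fold change was 5.75 (SE 1.06, edgeR, Benjamini-Hochberg FDR 0.118), or 6.30 without Notch3-/- mouse 3 and 5.21 without Notch3-/- mouse 2. Apom encodes the lipocalin that carries sphingosine-1-phosphate on high-density lipoprotein. It had 0, 0, 1 and 1 counts in the control hearts, against 143, 297 and 1 counts in Notch3-/- mice. Only Notch3-/- mice 1 and 2 thus held more than 1 count. Apom failed the expression filter, which asks for about 10 counts in at least 3 mice, and the ratio of its summed, scaled counts was 242 (95% interval 66.5 to 2003, exact binomial, counting error only).

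Apoc3 and Apoa5 act in opposite directions on triglyceride hydrolysis, Apoc3 as an inhibitor and Apoa5 as an activator. Apoc3 had 2, 16, 0 and 2 counts in the control hearts, against 776, 1499 and 27 counts in Notch3-/- mice. All Notch3-/- mice were above all control mice, Notch3-/- mouse 3 (5.11 CPM) only slightly above control mouse 2 (3.37 CPM). Its libraries 1 to 3 had 1, 2 and 24 counts of Apoc3, or 0.823, 1.44 and 8.89 CPM, so that this rested on library 3. The log2 fold change was 7.06 (SE 1.26, edgeR, Benjamini-Hochberg FDR 0.118), or 7.62 without Notch3-/- mouse 3 and 6.34 without Notch3-/- mouse 2. Apoa5 had 3, 14, 0 and 0 counts in the control hearts, against 671, 3012 and 11 counts in Notch3-/- mice, with Notch3-/- mouse 3 below control mouse 2 in CPM. Its log2 fold change was 7.92 (SE 1.56, edgeR, Benjamini-Hochberg FDR 0.118), with 8.48 and 6.34 in the same order of omitted mice. It overlaps the antisense gene Gm47544 over 1331 bases, for which there is no count here. The opposing roles of the pair did not show in their direction, which was the same in each Notch3-/- mouse.

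Apoc1, an exchangeable apolipoprotein that hinders remnant uptake, had 3, 10, 0 and 1 counts in the control hearts, against 640, 1142 and 9 counts in Notch3-/- mice. It also failed the filter, since only Notch3-/- mice 1 and 2 reached its minimum, and its means were 0.857 ± 0.929 CPM (SD, n = 4) and 139 ± 123 CPM (SD, n = 3). Apoh encodes beta-2-glycoprotein I, a plasma protein that binds phospholipid. It had 4, 17, 2 and 4 counts in the control hearts, against 753, 2074 and 18 counts in Notch3-/- mice. Its log2 fold change of 6.91 (SE 1.28, edgeR, Benjamini-Hochberg FDR 0.118) became 7.47 without Notch3-/- mouse 3 and 5.85 without Notch3-/- mouse 2. For Apoc1 and Apoh alike, Notch3-/- mouse 3 was below control mouse 2, and the groups overlapped. Apoh overlaps 575 bases of Prkca on the other strand and 3217 bases of Gm11656, which had 0 counts, on its own. Prkca had 494 counts in control and 343 counts in Notch3-/- mice, and since the sources used here do not state whether strand was used in counting, reads there cannot be assigned with certainty.

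The assembly genes Apob and Mttp were next. Apob (ENSMUSG00000020609) encodes the structural protein of very low-density lipoprotein and chylomicrons. It had 2, 10, 2 and 0 counts in the control hearts, against 915, 5323 and 16 counts in Notch3-/- mice. Notch3-/- mouse 2 was the highest by a wide margin, and Notch3-/- mouse 3 (3.03 CPM) was above control mouse 2 (2.11 CPM), so that the groups did not overlap. This too rested on library 3 of Notch3-/- mouse 3, whose libraries 1 to 3 had 1.65, 1.44 and 4.44 CPM of Apob. The log2 fold change of 8.92 (SE 1.63, edgeR, Benjamini-Hochberg FDR 0.118) was the largest among the members tested in that fit, and it was 9.49 without Notch3-/- mouse 3 (edgeR, Benjamini-Hochberg FDR 2.7e-05). Without Notch3-/- mouse 2 it was 7.05 (edgeR, Benjamini-Hochberg FDR 0.224). For genes with so few control counts, the fitted value depends on the prior count.

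Mttp (ENSMUSG00000028158), by contrast, was counted in every heart. It had 39, 82, 79 and 48 counts in the control hearts, against 231, 1329 and 113 counts in Notch3-/- mice, or 12.8 to 18.6 CPM against 63.1, 279.5 and 21.4 CPM. All Notch3-/- mice were above all control mice, Notch3-/- mouse 3 by less than the range of the control mice. The log2 fold change was 2.90 (SE 0.68, edgeR, Benjamini-Hochberg FDR 0.165). It was 3.39 without Notch3-/- mouse 3 (edgeR, Benjamini-Hochberg FDR 0.001) but 1.36 without Notch3-/- mouse 2 (edgeR, Benjamini-Hochberg FDR 0.403), so that its size rested largely on that mouse. Mttp overlaps the antisense gene Gm43691 over 10802 bases and Trmt10a over 1521 bases. Gm43691 had 7 counts in control and 75 counts in Notch3-/- mice, and Trmt10a 88 and 99 counts.

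Apoe (ENSMUSG00000002985, chr7:19696109-19699188, minus strand) was the only member abundant in all hearts, with 1385, 1630, 1463 and 941 counts in the control hearts, against 3169, 4489 and 1560 counts in Notch3-/- mice. In CPM the control mice had 456, 344, 344 and 314 and the Notch3-/- mice 866, 944 and 295. Notch3-/- mice 1 and 2 were above all control mice, whereas Notch3-/- mouse 3 was below all of them. The means were 365 ± 62.6 CPM (SD, n = 4) and 702 ± 354 CPM (SD, n = 3), and the log2 fold change was 0.94 (SE 0.33, edgeR, Benjamini-Hochberg FDR 0.349). Without Notch3-/- mouse 3 it was 1.31 (edgeR, Benjamini-Hochberg FDR 0.000483), and without Notch3-/- mouse 2 it was 0.67 (edgeR, Benjamini-Hochberg FDR 0.819).

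As a difference from the control mean, the Apoe level of Notch3-/- mouse 1 was 501 CPM and that of Notch3-/- mouse 2 was 579.7 CPM, against 351 and 644 CPM for Apoa1. Per kb of exon the differences were 235 and 271 CPM for Apoe and 284 and 521 CPM for Apoa1. The small fold change of Apoe beside Apoa1 thus went with a difference in CPM of the same order, set on a far higher control level. The differences in Notch3-/- mouse 3 were -69.5 CPM for Apoe and 6.94 CPM for Apoa1.

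The promoters of 8 of the 10 members were found in the RefSeq table (GRCm38.p6), 250 bases before to 50 bases after the start, and 3 are shown because their genes span the range from Apob and Apoa5, near 0 in control hearts, to Apoe, abundant in all. The 220 bases that end 31 bases before the start are printed, with matches to any of the 3 motifs searched, on either strand, in capitals. They lie at chr12:7977427-7977646 (Apob, plus strand), chr9:46268383-46268602 (Apoa5, plus strand) and chr7:19699219-19699438 (Apoe, minus strand).
Apob: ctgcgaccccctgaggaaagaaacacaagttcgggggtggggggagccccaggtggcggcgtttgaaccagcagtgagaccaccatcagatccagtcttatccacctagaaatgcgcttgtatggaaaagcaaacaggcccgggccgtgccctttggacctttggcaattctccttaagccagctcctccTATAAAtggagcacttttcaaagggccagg
Apoa5: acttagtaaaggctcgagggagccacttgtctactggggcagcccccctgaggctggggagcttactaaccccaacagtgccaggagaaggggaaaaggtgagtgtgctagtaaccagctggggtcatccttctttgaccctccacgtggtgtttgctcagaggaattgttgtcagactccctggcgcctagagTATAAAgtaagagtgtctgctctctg
Apoe: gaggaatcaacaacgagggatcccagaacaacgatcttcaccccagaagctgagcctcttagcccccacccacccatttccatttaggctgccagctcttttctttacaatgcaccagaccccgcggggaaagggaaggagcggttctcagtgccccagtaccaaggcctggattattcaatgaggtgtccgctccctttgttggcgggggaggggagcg
TATAAA was found in the promoters of 3 members, Apob, Apoa5 and Apoa2, and in 13.6% of all 32851 promoters in the table. GGGCGG was found in that of Mttp (35.7% of all promoters) and AGGTCA in that of Apoh (16.3% of all promoters). The Apoe promoter, at the start used, held none of these motifs. RefSeq lists 3 starts for Apoe and 2 each for Apoa2 and Apoa5, and the matches given cover only the start used. A match is a description of the sequence only.

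Across the whole table, edgeR called 1 of 14324 genes (0.00698%) with a Benjamini-Hochberg FDR under 0.05 and at least 1.5 times the level in either direction, and that gene was Notch3. Of the members, 8 passed the expression filter and 0 were called by edgeR's quasi-likelihood test. Each of the 8 was higher in Notch3-/- hearts at an unadjusted p under 0.05, as had 7.34% of all genes tested. The liver-restricted members that passed did so largely through Notch3-/- mice 1 and 2, and Apob through the 3 Notch3-/- mice. The filter itself thus favoured a difference, and this count is no support of its own. DESeq2, which has another filter, called 9 of the 10 members as higher, all but Apoe, against 3.37% of the genes with an adjusted p. Apoc1 and Apom, which failed the edgeR filter, entered here through Notch3-/- mice 1 and 2, so that this count too is no support of its own. Without Notch3-/- mouse 3, edgeR called 10 of 10 as higher, against 6.02% of the genes tested. That mouse was singled out for its low member values and the filter then asked for fewer mice, so this count is no support either, and each of the other 6 fits with 1 mouse left out called 0 members.

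Counted by mouse and over all 10 members, with no filter, Notch3-/- mouse 1 exceeded all 4 controls for 10 of 10 and Notch3-/- mouse 2 for 10 of 10, against 23.9% and 29.3% of all tested genes. Notch3-/- mouse 3 did so for 4 of 10 (Apoa1, Apoc3, Apob and Mttp), against 20.1% of all tested genes. For the same 4 members all Notch3-/- mice lay above all control mice, which held for 4.57% of the genes tested. Both counts rested on library 3 of Notch3-/- mouse 3 for Apoa1, Apoc3 and Apob, which in its libraries 1 and 2 lay below control mouse 2. For Mttp, libraries 1 to 3 of Notch3-/- mouse 3 had 16.5, 24.4 and 21.8 CPM. Library 1 thus lay below control mice 2 (17.3 CPM) and 3 (18.6 CPM). Over the 10 members, the median of the log2 differences to the control mean was 0, 1.16, -1.04 and -0.14 for control hearts 1 to 4, against 6.81, 7.74 and 1.03 for Notch3-/- hearts 1 to 3. Over all tested genes that median was between 0 and 0.01 in every mouse. The members' value in Notch3-/- mouse 3 was thus lower than that of control mouse 2.

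Taking the classes apart, the 7 liver-restricted members summed to 10.2, 30.1, 2.59 and 8.02 CPM in control mice 1 to 4 and to 1476, 2697 and 30.6 CPM in Notch3-/- mice 1 to 3. Control mouse 2 and Notch3-/- mouse 3 were almost level in this sum. In Notch3-/- mouse 3 each of the 7 had its highest CPM in library 3, so that the level sum rested on that library. Measured from the control mean, their median log2 difference in Notch3-/- mice was 6.85, 7.76 and 1.04. For the 3 members classed as heart-expressed the median was 1.94, 4.08 and 0.40, which was the value of Mttp in each of these mice. Apoe in Notch3-/- mouse 3 lay below all control mice. Apob, as far from its control level as the liver-restricted genes, did not behave as the other 2 of its class.

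A single gene of each class, Apoa1 and Apoe, was compared within each mouse by their log2 ratio, which needs no scaling between mice. The members were chosen with earlier results of these data known, so that the test below describes these genes only. It does not concern the classes. The log2 ratio was -7.53, -4.99, -8.17 and -6.80 for control hearts 1 to 4, against -1.29, -0.54 and -4.71 for Notch3-/- hearts 1 to 3. All Notch3-/- ratios were above all control ratios, with Notch3-/- mouse 3 close to control mouse 2. By library, Notch3-/- mouse 3 had -5.77, -5.48 and -3.88, against -4.86, -4.84 and -4.92 for control mouse 2. Libraries 1 and 2 of Notch3-/- mouse 3 thus lay below control mouse 2, and the full separation rested on library 3. The means were -6.87 ± 1.38 (SD, n = 4) and -2.18 ± 2.22 (SD, n = 3), a difference of 4.69 on the log2 scale (two-sided exact permutation test over 35 splits, p = 0.0286, which is the minimum with 4 and 3 mice). When the log2 ratios of the 3 libraries of a mouse were averaged instead, the difference was 4.28 and the same exact permutation test gave p = 0.0571. By composition, Apoe made up 93.5%, 82.0%, 96.2% and 92.3% of the members' summed CPM per kb in control mice, 20.5% and 14.8% in Notch3-/- mice 1 and 2, and 79.0% in Notch3-/- mouse 3.

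**Figure D2:**
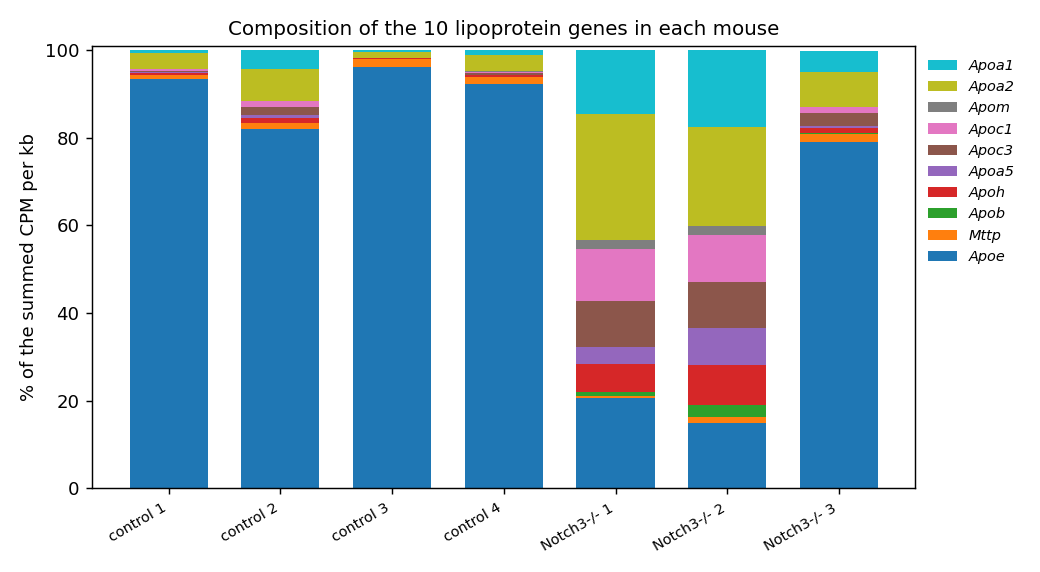
Share of each gene in the summed CPM per kb of exon of the 10 lipoprotein genes, 1 bar per mouse. Apoe fills 82.0% to 96.2% of the bar in control mice and 79.0% in Notch3-/- mouse 3, while Apoa2, Apoa1, Apoc1 and Apoc3 take large shares in Notch3-/- mice 1 and 2.

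The order of the members was alike in the Notch3-/- hearts with high values. In Notch3-/- mouse 1 it was led by Apoa2 at 570.4 CPM per kb, then Apoe at 405 and Apoa1 at 287 CPM per kb. In Notch3-/- mouse 2 Apoa2 was again first at 673 CPM per kb, with Apoa1 at 524 and Apoe at 442 CPM per kb. Mttp, among the 3 highest in control mice 1, 3 and 4, was last in both. Averaged over the 3 Notch3-/- mice, Apoa2 had 419 ± 355 CPM per kb and Apoe 328 ± 166 CPM per kb (SD, n = 3 each), and no neighbours in that order differed by more than their spread.

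The technical libraries showed where the values of a mouse came from. In Notch3-/- mouse 3, Apoa1 had 7, 7 and 43 counts in libraries 1 to 3, or 5.76, 5.03 and 15.9 CPM. Libraries 1 and 2 were above the values of control mice 1, 3 and 4, and only the excess over control mouse 2 rested on library 3. Apoa2 had 7, 4 and 28 counts and Apob 2, 2 and 12 counts in the same libraries. The hepatocyte marker Alb had 41, 47 and 266 counts there, or 33.8, 33.8 and 98.5 CPM. Apoe was not higher in library 3, with 392, 287 and 254 CPM. In control mouse 2, Apoa1 was spread evenly, with 21, 14 and 14 counts or 8.99, 10.9 and 11.8 CPM. Whether library 3 differed for a technical reason was not tested.

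**Figure D3:**
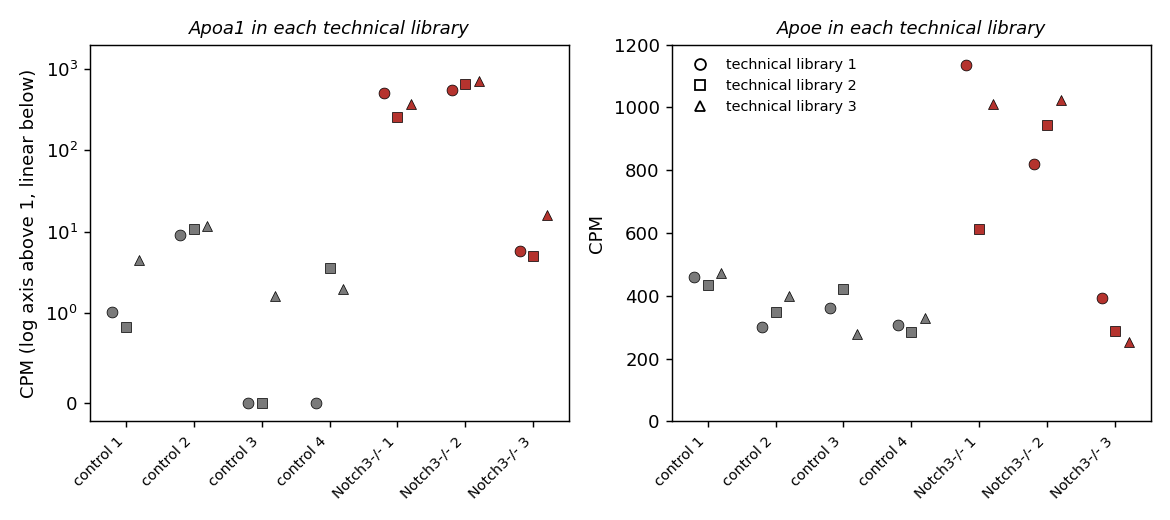
CPM of Apoa1 (log axis above 1, linear below) and of Apoe (linear axis) in each of the 21 technical libraries, 3 per mouse, control in grey and Notch3-/- in red. In Notch3-/- mouse 3, Apoa1 is at 15.9 CPM in library 3 and near 5 CPM in the other libraries, while Apoe in that mouse stays between 254 and 392 CPM.

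Counts of several members did not follow sequencing depth. In Notch3-/- mouse 1, with 979804, 1775598 and 1073361 counts per library, Apoa1 had 466, 464 and 368 counts and Apob 203, 443 and 269 counts. Over the 6 libraries of Notch3-/- mice 1 and 2, the slope of log2 count on log2 depth within a mouse was 0.13 (SE 0.22) for Apoa1 and -0.15 (SE 0.32) for Apoa2. For Apoe it was 0.13 (SE 0.06), against 0.82 (SE 0.13) over all 21 libraries, and its CPM in the libraries of Notch3-/- mouse 1 was 1135, 614 and 1011. For Apob the slope was 1.18 (SE 0.17) and for Apoa5 0.91 (SE 0.09), near the 1 that proportional counting gives. Apom had 0.01 (SE 0.23), Apoc1 -0.1 (SE 0.31), Apoc3 0.14 (SE 0.33) and Apoh 0.47 (SE 0.06). Mttp had 0.30 (SE 0.40), less than 2 SE from 1. Depth varied less in Notch3-/- mouse 2, from 1583662 to 1916221 counts. The slopes over these 6 libraries thus rested mainly on library 2 of Notch3-/- mouse 1. No slope over all genes is given here, so that the members were not set against other genes. Apoa2 reached 1.10 counts per exon base in library 3 of Notch3-/- mouse 2, which had the fewest counts of that mouse (1583662), while no gene of at least 200 exon bases exceeded 1.97 in any library and Apob, with 13934 exon bases, reached 0.141. Why counts did not follow depth was not tested.

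The members also differed in how far Notch3-/- mice 1 and 2 lay apart. The ratio of CPM in Notch3-/- mouse 2 to mouse 1 was 1.18 for Apoa2, 1.83 for Apoa1, 3.46 for Apoa5, 4.43 for Mttp and 4.48 for Apob, with a median of 1.71 over the 10 members and 1.02 over all tested genes. Spearman's rho of this ratio with exon length was 0.733 across the 10 members, whose points share the same pair of mice. Apoe had a ratio of 1.09. Across all tested genes rho was 0.0278, and across 12 hepatocyte markers 0.573.

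**Figure D4:**
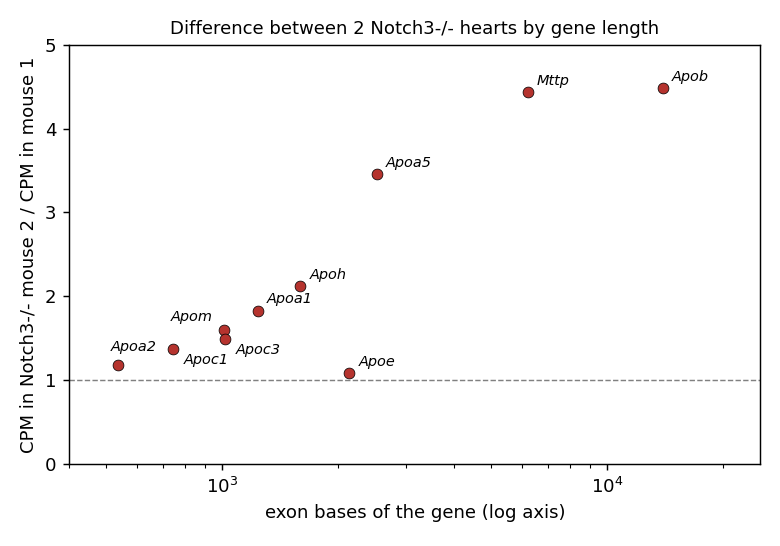
Ratio of CPM in Notch3-/- mouse 2 to CPM in Notch3-/- mouse 1 against the exon bases of each of the 10 lipoprotein genes (log axis), with a dashed line at a ratio of 1. The ratio goes from 1.18 for Apoa2, with 537 exon bases, to 4.48 for Apob, with 13934, and Apoe lies apart at 1.09.

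Markers of other cell types were read beside the members. Of all tested genes, 23.9%, 29.3% and 20.1% exceeded all 4 controls in Notch3-/- mice 1 to 3. Notch3-/- mice 1 and 2 exceeded all 4 controls for 12 of 12 hepatocyte markers, and Notch3-/- mouse 3 did for 5 of 12. Their summed level was 176, 278, 112 and 117 CPM in control mice and 6559.7, 10756 and 248 CPM in Notch3-/- mice, so that it was high and low in the same hearts as the liver-restricted members. Trf, which the heart also expressed at 119 ± 22.4 CPM (SD, n = 4) in control mice, was the most abundant of them in control hearts, and Alb in Notch3-/- hearts, with 68, 385, 10 and 32 counts in control and 6240, 8913 and 354 counts in Notch3-/- mice. None of the 12 was at 0 in all control mice. Whether hepatocyte RNA had a part in the members' values was not tested.

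Kupffer cell markers, of the macrophages of the liver, were 4 in number, and Notch3-/- mice 1 and 2 exceeded all controls for 4 of 4, Notch3-/- mouse 3 for 3 of 4. Over all tested genes the shares for Notch3-/- mice 1 to 3 were 23.9%, 29.3% and 20.1%. Clec4f, the defining marker, had 0, 6, 7 and 2 counts in control and 83, 128 and 10 counts in Notch3-/- mice. The 4 markers summed to 5.48 to 8.68 CPM in control and to 54.9, 72.1 and 14 CPM in Notch3-/- mice. In Notch3-/- mice 1 to 3, Timd4 had 3.01, 3.79 and 5.48 CPM and Vsig4 9.02, 10.9 and 6.43 CPM. Cd5l had 20.2, 30.5 and 0.189 CPM there, against 4.01 CPM in control mouse 4. The sum in Notch3-/- mouse 3 was thus mostly Vsig4 and Timd4, and Timd4 was highest in that mouse. Of the 8 general macrophage markers the sum was 476 to 602 CPM in control and 579, 547 and 629.7 CPM in Notch3-/- mice, with Lyz2 the most abundant. Whether macrophages had a part in the Apoe values was not tested. The 6 cardiomyocyte markers had -0.22 as their median log2 fold change, and Ttn, Myh6 and the other 4 were abundant in every heart.

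Enterocytes and kidney tubules also make some of these proteins. Of 6 enterocyte markers, 5 had at most 10 counts in any mouse and Alpi had 0 in all. The exception, Fabp2, had 0, 1, 0 and 0 counts in control and 13, 221 and 0 counts in Notch3-/- mice. Of the 5 kidney tubule markers, Slc34a1, Slc22a6 and Umod were at 0 in every mouse, and Kap and Slc12a1 had at most 4 counts. The 4 adipocyte markers summed to at most 8.35 CPM in a control mouse and to 3.01, 19.1 and 0 CPM in Notch3-/- mice, the largest value being due to Cidec.

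From outside the group of 10, a chosen list of 6 further apolipoproteins was read. Apoa4, Apoc2, Apoc4 and Apof had no more than 5 counts in any control heart, and Notch3-/- mice 1 and 2 exceeded all 4 controls while Notch3-/- mouse 3 did not. Apoa4 had 263, 1663 and 4 counts in Notch3-/- mice 1 to 3. Apoc2, the activator of lipoprotein lipase, had 187, 792 and 1 counts there, against 2 counts in all control mice together, a ratio of 537 (95% interval 148 to 4444, exact binomial, counting error only). Apoc4 had 281, 767 and 1 counts and Apof 353, 1260 and 5 counts. Clu and Apod, which many tissues make, passed the filter and did not follow this pattern, with log2 fold changes of -0.11 (SE 0.11) and -0.42 (SE 0.37). Clu averaged 782 ± 77.1 CPM (SD, n = 4) in control hearts against 726 ± 46.6 CPM (SD, n = 3) in Notch3-/- hearts.

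Of 29 other lipoprotein genes, listed by role, 25 were tested and 0 were called by edgeR, while DESeq2 called 6 as higher, against 3.37% of all genes with an adjusted p, and 0 as lower. With edgeR and an unadjusted p under 0.05, 7 were higher, against 7.34% of all genes tested. By the same measure 1 was lower, against 437 of the 14324 genes tested. The median log2 fold change was 0.20, against 0 over all genes tested. The gene with the highest control level per kb is given for each role, and that with the smallest p for 2 of them. For assembly and secretion these were P4hb, the partner subunit of the transfer protein, at 451 ± 8.35 CPM (SD, n = 4) in control and 632 ± 253 CPM (SD, n = 3) in Notch3-/- hearts, and Cideb, a lipid droplet protein needed for lipoprotein lipidation, with 32, 29, 33 and 40 counts in control and 151, 717 and 73 counts in Notch3-/- mice. For receptors and uptake the fatty acid transporter Cd36 was the most abundant. Cd36 had 1649 ± 147 CPM (SD, n = 4) and 1417 ± 78.6 CPM (SD, n = 3) in control and Notch3-/- hearts.

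For lipolysis the most abundant was Lpl, the lipase that releases fatty acids at the capillary wall. Lpl had 2094 ± 182 CPM (SD, n = 4) in control and 1746 ± 224 CPM (SD, n = 3) in Notch3-/- hearts, with -0.26 as log2 fold change (SE 0.11, edgeR, Benjamini-Hochberg FDR 0.472). For the formation of high-density lipoprotein they were Pltp, a phospholipid transfer protein, and Lcat, the plasma enzyme that Apoa1 activates. Pltp had a log2 fold change of 0.29 (SE 0.24), and Lcat had 6, 9, 3 and 5 counts in control and 373, 1124 and 14 counts in Notch3-/- mice. Of these 6 genes, Cideb and Lcat, with low control counts, were above every control heart in all 3 Notch3-/- mice, and P4hb, which was abundant, in Notch3-/- mice 1 and 2. Cd36 and Lpl were not, and Pltp was so in Notch3-/- mouse 2 only.

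By position, Apoa1, Apoc3 and Apoa5 lie with Apoa4 in 1 cluster on chromosome 9, with 2466 bases between Apoa1 and Apoc3, and Apoe and Apoc1 lie 3448 bases apart on chromosome 7. Genes next to the clusters that are not apolipoproteins were counted in every heart. Tomm40, 2124 bases from Apoe, had 159 to 195 CPM in control and 170.2, 127 and 174 CPM in Notch3-/- mice. Zpr1, 1144 bases from Apoa5, had 50.1 to 71 CPM in control and 56, 61.2 and 63.7 CPM in Notch3-/- mice. Sik3, 4385 bases from Apoa1, had 56 to 84.8 CPM in control and 85, 89 and 60.3 CPM in Notch3-/- mice, so that Notch3-/- mice 1 and 2 were slightly above all controls. Apom is on chromosome 17, as is Notch3, with 2962144 bases between them, and its neighbour Bag6 had a log2 fold change of -0.22 (SE 0.16). Over all 6 neighbours the median log2 fold change was -0.06, and 0 were called by edgeR at an FDR lower than 0.05, 0 had an unadjusted p lower than 0.05 and 0 were called by DESeq2.

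Genes with the pattern most like that of a member were found by Pearson's r of log2 CPM over the 21 libraries, which share mice in threes and a large difference between hearts. For Apoa1 they were Gc (0.990), Fabp1 (0.988), Fgb (0.986), Mat1a (0.985) and Hpx (0.985). For Apoe they were Adh1 (0.947), Pmvk (0.934), Hp (0.934), Selenop (0.929) and Gm16559 (0.928). Among the members, with the prior count not scaled to library size, r with Apoa1 was 0.911 to 0.985 for the liver-restricted genes, 0.973 for Apob, 0.876 for Mttp and 0.853 for Apoe.

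The groups are small, and the Notch3-/- values rest on mice 1 and 2, with Notch3-/- mouse 3 near the control hearts. Control mice 1 and 2 carry another kind of label than the remaining mice, and what the labels stand for is not given. Only control mice 3 and 4 share the k labels of all Notch3-/- mice, and with 2 control mice the exact permutation test cannot reach a small p. Order of handling and sex are not given either, so that genotype and such factors cannot be told apart. RNA was measured in whole tissue, and protein and plasma lipids were not analysed here.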

How the data were processed

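The deposited values are counts, whole numbers of reads per Ensembl gene and library that the authors did not normalize. The processing notes name CASAVA and mm10; aligner, counter, duplicate and strand handling are not given in the sources used here. In GENCODE vM21 (GRCm38), 46005 of 46517 identifiers were found, and 92 spike-in sequences (34 counts) were left out. The 3 technical libraries of a mouse differed by more than counting error (chi-square per degree of freedom 2.08 to 7.89) and were summed, giving 3046326 to 5167869 counts per mouse. Genotypes were compared in R 4.3.3 with edgeR 4.0.16 (filterByExpr, TMM, quasi-likelihood F-test, Benjamini-Hochberg adjustment over all genes tested), with DESeq2 1.42.0 (fold changes not shrunken) and limma 3.58.1 as alternatives. Log2 CPM had a prior count of 2, and the floor was 3 counts. Exon lengths are unions of all exons. Reads carry no molecular identifiers, so intervals cover counting error only. The alternatives covered normalization, filter, left-out mice, mice with labels starting with k, single technical libraries and the unit of analysis. The scripts were tested on simulated data. The members and lists were chosen with earlier results of these data known. Named were the members, Notch3, marker, neighbour and further apolipoprotein genes, in each role the gene with the highest control level per kb and that with the smallest p (in 2 roles the latter is not reported here), and the 5 genes most correlated with Apoe and with Apoa1. Genes that overlap a member are named for their shared reads.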

Additional observations from a re-analysis of the deposited data

How the results depend on the processing

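All 115 log2 fold changes of the 8 tested members under the alternatives were positive, and 29 were called. These values are refits of the same 7 mice. Most of these members passed the filter largely through Notch3-/- mice, so that neither count is support of its own. The calls came from DESeq2, the fit of every gene, single technical libraries and the fit without Notch3-/- mouse 3. Of all genes, DESeq2 called 3.37% as higher, and edgeR without Notch3-/- mouse 3 called 6.02%. The number of genes called was 1 in the edgeR fit of all mice and 601 with DESeq2, 639 with every gene of at least 1 count, 48, 39 and 77 with technical library 1, 2 or 3 alone, 65 with limma-voom on 21 libraries and 0 in the k-labelled mice. With 1 mouse left out it ranged from 1 to 936, the latter without Notch3-/- mouse 3. The number of members called was 0 in that edgeR fit, 9 with DESeq2, 9 with every gene, 1, 2 and 4 with technical library 1, 2 or 3 alone, and 0 to 10 with 1 mouse left out, 10 without Notch3-/- mouse 3. Filters differed between these fits, and single libraries tested 3 to 5 members. With the technical library number as a replicate block, limma-voom called 62 genes and 0 of the 4 members it tested, as without it. Between technical libraries of different mice, the median correlation of their deviations was -0.0146 over 63 pairs with the same number (-0.207 to 0.128). It was 0.00347 over 126 pairs with different numbers (-0.212 to 0.265). What the number stands for is not given, and whether it marks a batch was not tested. The difference of the Apoa1 to Apoe log2 ratio was 4.28 for averaged library ratios (exact permutation p = 0.0571), 5.31 in the k-labelled mice and 3.88 to 5.96 with 1 mouse left out; the latter designs cannot reach p lower than 0.05. Other causes were not tested. Apoe ranged from 0.67 to 1.31. Fold changes of members near 0 counts in control mice, such as Apoa5 at 13.15 in the k-labelled mice, are limited by depth and depend on the prior count.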

Other observations

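Sort1 and Angptl4, further lipoprotein genes, were singled out after their values were seen. Sort1, which encodes a sorting receptor that binds apolipoprotein B, had 62.6 and 51 CPM in control mice 1 and 2, whose labels start with X, and 19.3 and 22.7 CPM in control mice 3 and 4. The Notch3-/- mice, whose labels start with k like those of control mice 3 and 4, had 36.9, 29.9 and 18.3 CPM. Its log2 fold change was -0.46 (SE 0.42) with all mice and 0.43 in the k-labelled mice alone, so that the direction depended on which control mice were used. Angptl4, a lipase inhibitor, had 107, 70, 49 and 97 counts in the control hearts, against 33, 239 and 315 counts in Notch3-/- mice. Notch3-/- mouse 3, low for most members, was the highest for Angptl4, and Notch3-/- mouse 1, high for the members, was the lowest.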
